A study of Mus musculus with 8 samples.

Results

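Mouse embryonic fibroblasts (MEF) that had been treated with combinations containing purmorphamine and with 2i/LIF, and that are labelled PM2i-iPSC, were compared with MEF. Both samples were labelled as of embryonic stage, and both were total RNA labelled with Cy3 and hybridised to a 1-colour Agilent whole-genome array. The comparison holds 2 of the 8 samples of the series, 1 array a side, and was chosen by the array titles. Of 27631 genes on the array, 21796 entered because PM2i-iPSC, MEF or both read them well above background. The labels do not say which other agents the purmorphamine combinations held, which strain the cells came from, whether the PM2i-iPSC are 1 clone, or whether the MEF RNA came from the culture that was reprogrammed. Levels on the arrays of embryonic stem (ES) cells and of the oxysterol-treated counterpart (OM2i-iPSC), also 1 array each, are given beside some genes as values only. With 1 array a side there is no replicate error and no test, and differences are described by their size.

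Fibroblasts are mesenchymal cells that build and remodel connective tissue. They secrete fibrillar collagens, proteoglycans and elastic fibres, hold contractile actin bundles, and answer TGF-beta, interferons and other cytokines. Reprogramming to induced pluripotency replaces that state with one in which Pou5f1, Sox2 and Nanog sustain self-renewal and the cells take up epithelial junctions. Purmorphamine binds Smoothened, the membrane protein that activates the Hedgehog pathway. The 2i medium joins inhibitors of MEK and GSK3, and LIF signals through Stat3.

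A level below is log2 of the processed spot intensity minus the array's 75th percentile, so 0 is the intensity at that percentile and a step of 1 is 2-fold. Each gene was read on its brightest probe, and a level is compared only between arrays on the same probe. Where the dimmer array was not well above background, or the brighter array was saturated, the fold is a lower bound and is written "at least". The arrays were read on different slides and scan days, with scanner software 10.7.3.1 for PM2i-iPSC and 9.5.3.1 for MEF, so array, day and software cannot be told apart from the cells. The lowest level that counted as well above background was -4.59 on the PM2i-iPSC array and -6.85 on the MEF array, and probes that the scanner marked as saturated had a median level of 4.23 on PM2i-iPSC and 5.12 on MEF. Saturation was read from that mark and not from a level, so some saturated probes lie below these medians and some unmarked ones above. The share of spots well above background was 63.4% for PM2i-iPSC and 72.8% for MEF. Repeated spots of a probe had an SD of 0.20 on the PM2i-iPSC array and 0.13 on the MEF array, or 0.24 for a difference, which covers error within an array only. Of 6 X and Y chromosome genes listed, 4 were lower in PM2i-iPSC, all on the Y chromosome. They were not well above background on the PM2i-iPSC array and were well above it on the MEF array. Ddx3y stood at -6.70 in PM2i-iPSC and 2.36 in MEF, and Kdm5d at -6.55 in PM2i-iPSC and 1.37 in MEF. Eif2s3y stood at -6.53 in PM2i-iPSC and 0.84 in MEF, and Uty at -6.58 in PM2i-iPSC and 0.09 in MEF. Ddx3y, Eif2s3y and Uty were well above background on the OM2i-iPSC array (1.09, -0.66 and 0.22), and Kdm5d was not (-6.62). On the ES array Ddx3y, Eif2s3y and Uty were not well above background (-6.18, -6.77 and -5.35), and Kdm5d was (-4.07). The part of these sex-linked differences in the results below was not tested.

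Over all entered genes, 33.5% (7301) were at least 2-fold higher in PM2i-iPSC and 24% (5233) at least 2-fold lower. At 4-fold the shares were 21.3% (4649) higher and 12% (2610) lower. Another 18% (3924) were measured on both arrays and lay within 1.5-fold of each other. The counts of each list below are to be set beside these shares. Genes well above background on the PM2i-iPSC array only made up 6.42%, and those on the MEF array only 16.4%. A gene of the last kind can only be lower in PM2i-iPSC, or have no fold. The median difference over all genes was 0.25. Scaling on the median of each array instead of the 75th percentile moved it to -0.37 and turned the split, with 5526 genes higher and 7527 lower; differences of that size depend on the scaling. Of the 7301 higher genes, 2982 had a MEF level under the PM2i-iPSC floor, where the PM2i-iPSC array could not have read them.

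**Figure D1:**
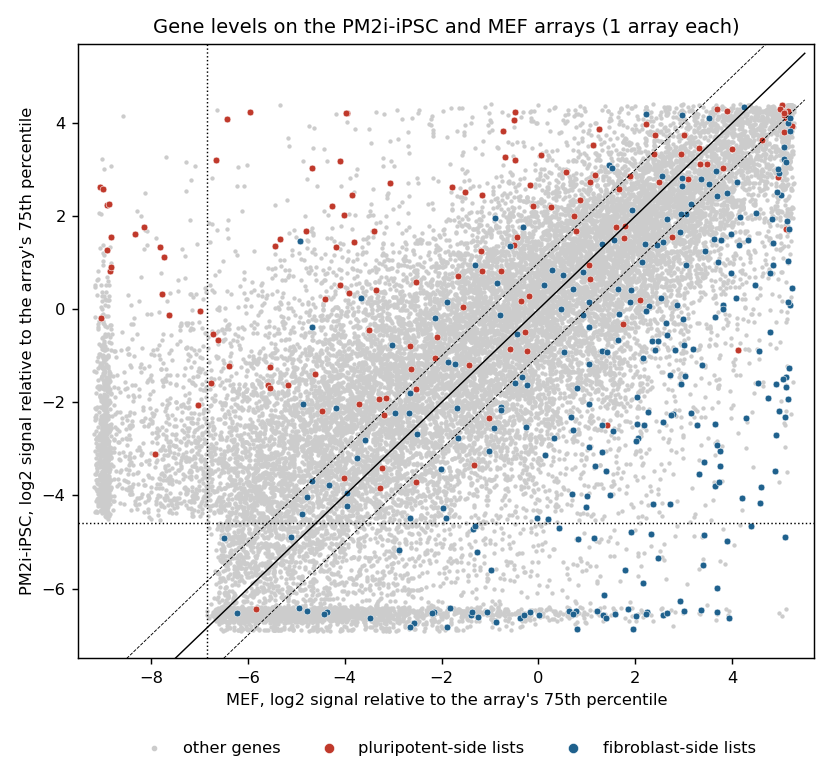
Level of every entered gene on the PM2i-iPSC array (vertical) against the MEF array (horizontal), both as log2 signal relative to the array's 75th percentile, with 1 array each. The solid line marks equality, the dashed lines 2-fold, and the dotted lines the detection floors of -4.59 for PM2i-iPSC and -6.85 for MEF. Genes of the pluripotent-side lists lie mostly above the equality line, and those of the fibroblast-side lists mostly below it.

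The 3 marker genes lay in the direction their cell types call for. These markers and the gene lists were chosen with earlier results of these data known, so their directions are descriptions and no check on identity. Nanog, a homeodomain factor of the pluripotency network, had a level of 4.21 in PM2i-iPSC, where it was saturated, and -3.96 in MEF, at least 289-fold higher. Cldn7, a claudin of epithelial tight junctions, stood at 2.25 in PM2i-iPSC and was not well above background in MEF (-8.86), at least 550-fold higher. Lum, the corneal and dermal proteoglycan lumican, was not well above background in PM2i-iPSC (-6.47) and stood at 3.35 in MEF, at least 245-fold lower. Pou5f1 had the widest measured difference among all genes with an ordinary name, with 3.21 in PM2i-iPSC and -6.66 in MEF, 938-fold higher. Thy1, a surface glycoprotein often used to sort fibroblasts, was 16.0-fold lower but remained well above background, with 0.78 in PM2i-iPSC and 4.77 in MEF. ES cells had a Thy1 level of 0.70. The probes of Pou5f1 and Cldn7 are shown because the whole value of each gene rests on 1 sequence, as neither has another probe on the array. They lie at chr17:33612047-33612107 for Pou5f1 and chr11:70048852-70049161 for Cldn7, both on the plus strand of mm7 as the file annotates them. Their place in exons was not analysed here.
Pou5f1 probe: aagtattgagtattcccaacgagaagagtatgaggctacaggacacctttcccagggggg
Cldn7 probe: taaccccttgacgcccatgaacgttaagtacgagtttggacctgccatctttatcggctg

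Listed genes of the extracellular matrix were low in PM2i-iPSC almost throughout. Matrix genes outside the fibroblast-side lists went both ways. Col13a1 was 324-fold higher, with a difference of 1.57 on another probe, and Lama1 was at least 473-fold higher. Col4a1, Col4a2 and Lamb1 were 7.34-fold, 4.96-fold and 7.42-fold lower. Over the fibroblast-side lists, 198 of 257 members with a difference were at least 2-fold lower and 18 higher, 7 of which had another probe, in 4 of them opposite. Of 14 collagen genes that entered, out of 15 listed, 13 were at least 2-fold lower in PM2i-iPSC and none higher, where 24% of all genes were lower, and the median difference was -3.96 against 0.25 for all genes. Col5a2, which starts the assembly of fibrils, stood at -6.50 in PM2i-iPSC and 2.25 in MEF, at least 114-fold lower. Col6a3, a chain of the beaded filaments around cells, had -5.34 in PM2i-iPSC and 2.48 in MEF, at least 134-fold lower, although a second probe differed by 0.74. Col8a1, a short-chain collagen, remained well above background at -2.46 in PM2i-iPSC against 3.65 in MEF, 68.8-fold lower. Col15a1 was the one listed collagen within 1.5-fold, and its level was low on both arrays (-4.24 in PM2i-iPSC, -3.95 in MEF). Of the 13 lower collagens, 6 were below background in PM2i-iPSC, so they could differ in 1 direction only and their folds are bounds.

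Proteoglycans and glycoproteins of the matrix followed, with 16 of 19 at least 2-fold lower, 1 higher and a median of -4.16. Dcn, the collagen-binding proteoglycan decorin, was measured on both arrays, at -3.81 in PM2i-iPSC and 4.59 in MEF, 338-fold lower. Ccn4, a matricellular Wnt-induced protein, stood at -2.32 in PM2i-iPSC and 5.10 in MEF, at least 171-fold lower. Thbs1, a thrombospondin, had -1.61 in PM2i-iPSC and 4.92 in MEF, 91.9-fold lower. Fn1, fibronectin, went against the list: its brightest probe read 0.51 in PM2i-iPSC and 0.12 in MEF, and -4.54 in ES cells. The other probes of Fn1 had a median difference of -1.32, so its standing at the MEF level rests on the brightest probe. Omd, osteomodulin of mineralised tissue, was 14.9-fold higher, at 0.23 in PM2i-iPSC against -3.66 in MEF, and its level in ES cells was 0.40.

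Elastic fibre and cross-linking genes were lower in 15 of 17 cases, with a median of -3.80. Lox, the copper enzyme that cross-links collagen and elastin, was not well above background in PM2i-iPSC (-6.64) and stood at 3.93 in MEF, at least 367-fold lower. Fbln5, which guides elastin onto microfibrils, had -6.49 in PM2i-iPSC and 3.01 in MEF, at least 194-fold lower. Fbn1, the microfibril protein fibrillin, had -4.82 in PM2i-iPSC and 2.33 in MEF, at least 121-fold lower. Mfap2, a small microfibril protein, was the member that was higher (0.96 in PM2i-iPSC, -1.32 in MEF), and its other probe differed by -3.99, the opposite way.

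Matrix proteases and their inhibitors had 18 of 19 members at least 2-fold lower and a median of -4.66. Serpinf1, a secreted inhibitor of vessel growth, was not well above background in PM2i-iPSC (-4.65) against 4.38 in MEF, at least 502-fold lower. The collagenase Mmp13 stood at -3.80 in PM2i-iPSC and 3.65 in MEF, 175-fold lower. The stromelysins Mmp3 and Mmp10 were 144-fold and 111-fold lower, with -2.19 and -3.06 in PM2i-iPSC against 4.98 and 3.74 in MEF. Mmp11, a further stromelysin, did not follow them, at 2.82 in PM2i-iPSC and 2.98 in MEF.

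The contractile and actin-binding genes were lower in 17 of 20 cases, with a median of -2.44. Over members well above background on both arrays it was -2.34, against -3.13 for collagens and -4.30 for matrix proteases and inhibitors. Under that filter proteoglycans had -2.51 and elastic fibre genes -2.21, so the standing against those lists depends on the filter. Of the 20 contractile genes, 19 were still well above background in PM2i-iPSC. Tgfb1i1, a focal adhesion protein of the paxillin family, was the exception, at -6.50 in PM2i-iPSC and 3.68 in MEF, at least 308-fold lower. Myl9, the regulatory myosin light chain of smooth muscle, stood at 0.46 in PM2i-iPSC and 5.24 in MEF, at least 27.4-fold lower. Tpm2, a tropomyosin, had -0.16 in PM2i-iPSC and 3.65 in MEF, 14.1-fold lower. Cald1, caldesmon, lay within 1.5-fold on its brightest probe (2.65 in PM2i-iPSC, 2.96 in MEF), while its other probe differed by -4.66.

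Transcription factors that specify mesenchyme were lower in 17 of the 21 with a difference, and 8 of the 22 that entered were below background in PM2i-iPSC. Prrx1, a homeobox factor of limb and craniofacial mesenchyme, had the widest bound of any fibroblast-side member, with -4.89 in PM2i-iPSC and 5.09 in MEF, at least 823-fold lower, and its 5 other probes differed by -8.64 to 0.56. Foxc2 stood at -5.49 in PM2i-iPSC and 3.41 in MEF, at least 256-fold lower. Twist2, a basic helix-loop-helix factor of dermal mesenchyme, was measured on both arrays at -2.71 in PM2i-iPSC and 4.90 in MEF, 196-fold lower. Zeb2, which represses E-cadherin, had -1.92 in PM2i-iPSC and 4.74 in MEF, 101-fold lower. Runx2, the master factor of bone, had -6.56 in PM2i-iPSC and 2.56 in MEF, at least 142-fold lower, while its 3 other probes had a median difference of -1.04. Its relative Runx1 was 4.09-fold higher in PM2i-iPSC (0.15, against -1.89 in MEF), with a difference of -3.11 on another probe, the opposite way. Osr1 and Meox1 lay within 1.5-fold, at -2.22 and -4.41 in PM2i-iPSC against -2.68 and -4.88 in MEF, but the other probe of Osr1 differed by -3.81.

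Of 20 surface proteins and receptors, 16 were at least 2-fold lower and 3 higher. The hyaluronan receptor Cd44 stood at -1.68 in PM2i-iPSC and 5.11 in MEF, at least 111-fold lower, although its other probes ranged from -8.58 to 1.25 in difference. The cytokine receptor Osmr stood at -6.54 in PM2i-iPSC and 2.22 in MEF, at least 112-fold lower, with a difference of 0.39 on another probe. Pdgfra, the PDGF receptor of mesenchyme, had -1.40 in PM2i-iPSC and 2.71 in MEF, 17.4-fold lower. Mme, the membrane peptidase neprilysin, was 84.0-fold higher, with 1.47 in PM2i-iPSC and -4.92 in MEF, and its other probe differed by 2.34 in the same direction. The ES and OM2i-iPSC arrays read Mme at -0.93 and -0.42. Eng, a TGF-beta co-receptor, was 3.87-fold higher (-0.19 in PM2i-iPSC, -2.14 in MEF). Cdh11, a cadherin of mesenchyme, was 3.15-fold higher on its brightest probe, at 3.10 in PM2i-iPSC and 1.45 in MEF, but its 2 other probes had a median difference of -7.46, so its direction is uncertain.

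In the TGF-beta list, 14 of 20 ligands, receptors and targets were lower and 2 higher. The ligands Tgfb1 and Tgfb2 and the activin subunit Inhba were all low in PM2i-iPSC, at -5.87, -3.28 and -6.28, against 2.17, 3.43 and 2.93 in MEF. These are differences of at least 108-fold for Tgfb1, 105-fold for Tgfb2 and at least 184-fold for Inhba. The secreted antagonists Grem1 and Fst were also at least 310-fold and 83.4-fold lower, not well above background in PM2i-iPSC (-6.00 and -5.61) and at 3.69 and 1.79 in MEF. The type I receptor Tgfbr1 stood at 1.49 in PM2i-iPSC and 1.55 in MEF, within 1.5-fold, though another probe differed by 2.57. Bmp4, Smad6 and Id2 were within 1.5-fold too. Smad7, the inhibitory Smad, was 7.25-fold higher (1.96 in PM2i-iPSC, -0.90 in MEF).

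The insulin-like growth factor axis had 7 of 11 members lower and 1 higher, where 24% of all genes that entered were lower and 33.5% higher. Igf2, the imprinted fetal growth factor, was not well above background in PM2i-iPSC (-4.98) and stood at 3.88 in MEF, at least 356-fold lower. H19, the imprinted non-coding RNA beside it, had -3.38 in PM2i-iPSC and 3.74 in MEF, 139-fold lower. A second probe differed by -7.98 for Igf2 and by -6.34 for H19. ES cells read Igf2 at -2.31 and H19 at -2.35. The binding protein Igfbp5 was 307-fold lower (-4.05 in PM2i-iPSC, 4.21 in MEF), with a difference of -2.02 on another probe. Igfbp2 was 3.83-fold higher (1.35 in PM2i-iPSC, -0.58 in MEF). The receptor Igf1r stayed within 1.5-fold, at 1.41 in PM2i-iPSC and 1.32 in MEF, while its other probes differed by -5.34 to -0.72.

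**Figure D2:**
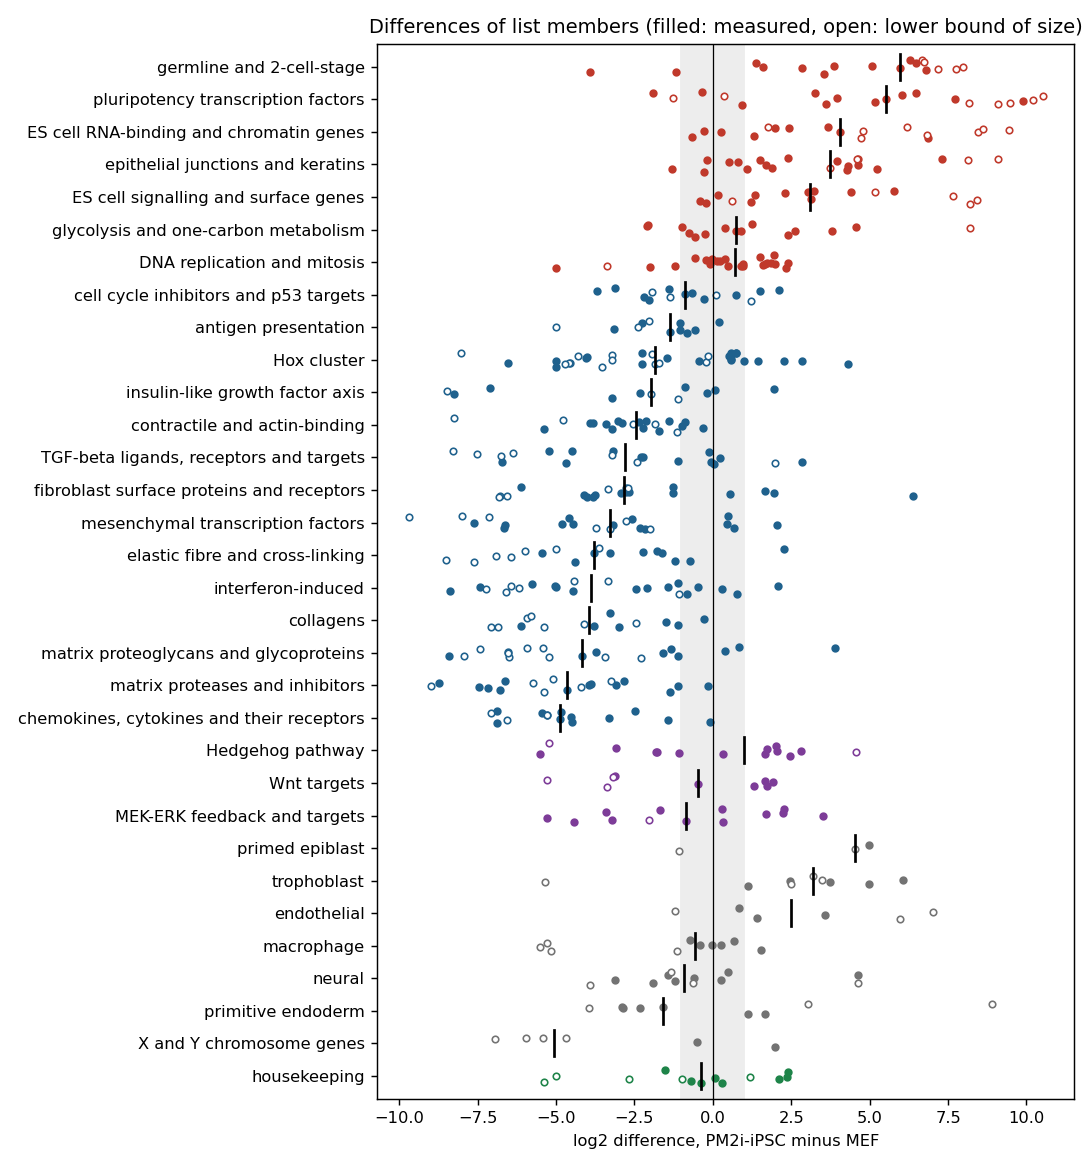
Difference of each list member in log2, PM2i-iPSC minus MEF, by gene list, with 1 array each. Filled points are measured on both arrays, open points are lower bounds of the size, the black bar is the list median, and the shaded band marks less than 2-fold. Medians run from 5.97 for germline genes through 0.70 for DNA replication and mitosis to -4.88 for chemokines and cytokines and -5.05 for X and Y chromosome genes.

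Innate defence genes formed a second low group. Among interferon-induced genes, 17 of the 22 that entered were at least 2-fold lower in PM2i-iPSC and 1 higher, with a median of -3.88. Over members well above background on both arrays the median was -1.77. Ifi27 stood at -3.48 in PM2i-iPSC and 4.89 in MEF, 332-fold lower, and its other probe differed by -6.21. Ifi44 had -3.71 in PM2i-iPSC and 3.72 in MEF, 172-fold lower. Oasl2, Ifit3 and Usp18, which act in RNA sensing, viral RNA binding and removal of the ISG15 modifier, were below background in PM2i-iPSC and stood at 2.66, 2.02 and 1.86 in MEF. The probe assigned to Isg15, the modifier itself, read 2.86 in PM2i-iPSC, 2.56 in MEF and 2.94 in ES cells. The file places it on chromosome 17 of mm7, whereas RefSeq has the gene on chromosome 4, so it is uncertain that this value reads Isg15. Mx1 was 4.21-fold higher at low levels (-2.11 in PM2i-iPSC, -4.19 in MEF). On the ES array, Ifi27 remained at 0.98 and Oasl2 at -2.57.

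The promoters of these genes carry a known element, so the window from 250 bases before to 50 after each start site was searched on both strands for the core of the interferon-stimulated response element, GAAANNGAAA. It occurred in 11 of 18 interferon-list genes that had a promoter in the RefSeq table (61.1%), against 3.99% of 27025 genes with a promoter and 3.8% of those that entered the comparison. A match is a description of the letters only, and the element also occurred in list genes that were not 2-fold lower in PM2i-iPSC. Stat2 was such a gene, and so was Isg15 as read on the probe of uncertain identity. The windows from 160 to 51 bases before the start site (GRCm38.p6) are shown for 3 genes that were low in PM2i-iPSC, because each holds the element. They were chosen after their values were seen. Matches are in capitals, on the strand of the gene or its complement. Ifit1, at chr19:34640729-34640838 on the plus strand, had -2.50 in PM2i-iPSC and 3.28 in MEF. Ifit3 is at chr19:34583369-34583478 on the plus strand. Rsad2, at chr12:26456503-26456612 on the minus strand, had -2.26 in PM2i-iPSC and 2.78 in MEF.
Ifit1: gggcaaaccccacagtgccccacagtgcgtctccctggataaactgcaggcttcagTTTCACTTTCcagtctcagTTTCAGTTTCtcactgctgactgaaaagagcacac
Ifit3: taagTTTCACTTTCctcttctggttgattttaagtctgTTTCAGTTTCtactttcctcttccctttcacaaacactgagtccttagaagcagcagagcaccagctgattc
Rsad2: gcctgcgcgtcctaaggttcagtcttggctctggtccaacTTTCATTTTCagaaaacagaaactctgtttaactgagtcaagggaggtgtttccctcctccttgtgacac

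Chemokines, cytokines and their receptors had the lowest median of the fibroblast-side lists (-4.88), with 14 of 15 at least 2-fold lower and none higher. Il11, an interleukin of the gp130 family made by activated fibroblasts, was saturated in MEF at 5.15 and stood at -1.93 in PM2i-iPSC, at least 135-fold lower. The stromal chemokine Cxcl12 had -4.18 in PM2i-iPSC and 2.71 in MEF, 119-fold lower. Cxcl1, which draws neutrophils, had -1.51 in PM2i-iPSC and 5.05 in MEF, at least 94.0-fold lower. Il13ra1 was the exception, at -0.54 in PM2i-iPSC and -0.45 in MEF, with a difference of -2.65 on another probe. Antigen presentation was lower to a smaller extent, in 8 of 11 cases with a median of -1.38. B2m, the light chain of class I molecules, stood at 0.16 in PM2i-iPSC and 5.15 in MEF, at least 31.8-fold lower. The class I heavy chain H2-D1 was 4.82-fold lower (1.49 in PM2i-iPSC, 3.76 in MEF), with a difference of 0.09 on another probe. H2-K1, a further heavy chain, lay within 1.5-fold on its brightest probe (2.79 in PM2i-iPSC, 3.36 in MEF), and its other probes had a median difference of -2.58.

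Markers of macrophages moved with this group in part. Of 10 macrophage genes, all of which entered, 4 were lower, 1 higher and 3 within 1.5-fold, and the median level was -3.37 in PM2i-iPSC and -0.84 in MEF. Over all genes that entered, 24% were lower, 33.5% higher and 18% within 1.5-fold. Tyrobp, Lyz2 and Adgre1, which mark myeloid cells, were not well above background in PM2i-iPSC (-6.64, -6.54 and -6.59) and stood at 0.93, 0.71 and 0.58 in MEF. Ptprc, the pan-leukocyte CD45, was at -6.63 in PM2i-iPSC and -3.44 in MEF. Csf1r, Cd68 and Cd14 lay within 1.5-fold, with a difference of 2.09 on another probe of Csf1r. Their part in the cytokine and interferon results was not tested, and in bulk RNA fewer cells of a type cannot be told apart from less RNA per cell.

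Hox genes, which hold positional identity along the body axis, differed in both directions. Of 37 that entered, 16 were below background in PM2i-iPSC, and of the 33 with a difference 19 were at least 2-fold lower, 5 higher and 4 within 1.5-fold. Over all genes that entered, 16.4% were well above background on MEF only, 24% lower, 33.5% higher and 18% within 1.5-fold. Among the lower ones, Hoxa7 stood at -4.84 in PM2i-iPSC and 3.43 in MEF, at least 259-fold lower, and Hoxd13, of the digits and genital tubercle, at -4.19 in PM2i-iPSC and 2.36 in MEF, 93.5-fold lower. Hoxd9, Hoxc13 and Hoxc10 had -2.26, -2.42 and -1.61 in PM2i-iPSC against 2.73, 2.56 and 2.95 in MEF. Hoxb9 remained at -0.85 in PM2i-iPSC against 3.18 in MEF. Genes of the A and B clusters supplied the higher ones. Hoxa4 had -0.37 in PM2i-iPSC and -4.67 in MEF, 19.7-fold higher, and Hoxb3 had 0.57 in PM2i-iPSC and -0.86 in MEF, 2.69-fold higher. The ES array read Hoxa4 at -4.76 and Hoxb3 at -5.01, and the OM2i-iPSC array at -3.13 and -4.56, so PM2i-iPSC was the highest of the 4 arrays for both. Hoxb13 was 4.79-fold higher (-0.77 in PM2i-iPSC, -3.03 in MEF), with -0.44 in ES cells. Hoxa3 was 7.16-fold higher when read on its brightest probe (-2.03 in PM2i-iPSC, -4.87 in MEF), differed by -3.92 on another probe, and turned direction with normexp correction. The brightest probe was picked anew under that correction, so the turned value may be of the other probe. Over the members well above background on both arrays, the list median was 0.53, the opposite sign to -1.84 over all members with a difference.

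Of 15 cell cycle inhibitors and p53 targets, 7 were lower and 3 higher, where 24% of all genes that entered were lower and 33.5% higher. The INK4 inhibitors Cdkn2b and Cdkn2a, barriers to reprogramming, had -0.88 and -2.77 in PM2i-iPSC against 2.83 and 0.33 in MEF, 13.1-fold and 8.61-fold lower. Cdkn1a, the p53 target p21, was 4.56-fold lower (1.25 in PM2i-iPSC, 3.44 in MEF). Cdkn2c and Cdkn2d, inhibitors of the same INK4 family, were 4.27-fold and 2.84-fold higher in PM2i-iPSC, at 1.78 and 3.02 against -0.32 and 1.52 in MEF.

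On the pluripotent side, 86 of 129 members with a difference were at least 2-fold higher and 11 lower. Of the 21 core transcription factors that entered, 14 were at least 2-fold higher in PM2i-iPSC, where 33.5% of all genes that entered were higher. Another 2 were lower, 2 had no fold, and the median was 5.53. All 14 were also at least 4-fold higher. Sall4, a zinc-finger partner of Oct4, stood at 4.09 in PM2i-iPSC and -6.43 in MEF, at least 1468-fold higher. Esrrb, an orphan nuclear receptor of the naive state, had 4.23 in PM2i-iPSC and -5.97 in MEF, at least 1173-fold higher. Another probe differed by only 3.38 for Sall4 and 3.10 for Esrrb, in the same direction, so these folds rest on the brightest probes. The nuclear receptors Nr0b1 and Nr5a2 were at 2.63 and 2.25 in PM2i-iPSC and not well above background in MEF (-9.04 and -8.92). The ES levels of Sall4, Esrrb, Nr0b1 and Nr5a2 were 4.27, 4.39, 2.55 and 3.10. Klf4, a factor of naive pluripotency, was already high in MEF, with 3.12 in PM2i-iPSC against 3.48 in MEF and 3.17 in ES cells. Stat3, the effector of LIF, was lower by at least 2.41-fold (3.81 in PM2i-iPSC, 5.08 in MEF, where it was saturated), with a difference of 1.91 on another probe, the opposite way. Tcf7l1, a repressor of the network that GSK3 inhibition relieves, was 3.72-fold lower (0.20 in PM2i-iPSC, 2.10 in MEF) on its brightest probe and differed by -0.12 on another. Its direction turned with quantile normalization and with normexp correction, where the brightest probe was picked anew and may be the other one. The octamer ATGCAAAT was found in the promoter window of 1 of 16 of these genes with a promoter in the table, against 1.97% of all.

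Signalling and surface genes of ES cells were higher in 12 of 16 cases and lower in none. Alpl, the alkaline phosphatase used to stain colonies, stood at 1.56 in PM2i-iPSC and was not well above background in MEF (-8.83), at least 341-fold higher. Tdgf1, the Nodal co-receptor Cripto, had 4.21 in PM2i-iPSC and -3.98 in MEF, at least 293-fold higher. Nodal had 2.71 in PM2i-iPSC and -3.06 in MEF, 54.6-fold higher. Its relative Gdf3 was at 0.82 in PM2i-iPSC and -8.85 in MEF, and at 2.26 in ES cells. Kit, the stem cell factor receptor, was at -1.59 in PM2i-iPSC and -6.76 in MEF. Il6st, the gp130 chain through which LIF signals, was within 1.5-fold (1.76 in PM2i-iPSC, 1.60 in MEF).

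RNA-binding and chromatin genes were higher in 14 of 17 cases, with a median of 4.04, and 6 of those were well above background in PM2i-iPSC only. Over members well above background on both arrays the median was 2.00. Lin28a, which blocks let-7 maturation, had 2.58 in PM2i-iPSC and -8.99 in MEF, at least 690-fold higher. Fbxo15, an early reporter of reprogramming, had 1.77 in PM2i-iPSC and -8.15 in MEF, at least 395-fold higher. Dppa4 and Dppa2, partners that mark bivalent promoters, had 1.61 and 1.51 in PM2i-iPSC against -8.33 and -5.35 in MEF, at least 352-fold and 116-fold higher. Among the DNA methyltransferases, Dnmt3b was at least 113-fold higher (-0.03 in PM2i-iPSC, -6.99 in MEF), whereas Dnmt1 and Dnmt3a lay within 1.5-fold on their brightest probes. The other probes of Dnmt3a differed by 2.00 and 3.83, so its direction is uncertain.

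The epithelial program was present, with 16 of 21 members at least 2-fold higher and a median of 3.75, or 2.39 with a detection floor shared by both arrays and 2.06 with the median over probes. Cdh1, E-cadherin, had 1.28 in PM2i-iPSC and was not well above background in MEF (-8.91), at least 280-fold higher. Cldn6, a claudin of embryonic epithelia, had 3.19 in PM2i-iPSC and -4.10 in MEF, 157-fold higher. Spint1, an inhibitor of membrane serine proteases, was 37.8-fold higher (1.44 in PM2i-iPSC, -3.80 in MEF), and Epcam, an adhesion molecule of epithelia, 24.7-fold higher (0.23 in PM2i-iPSC, -4.40 in MEF). Cldn3 was 2.46-fold lower (-2.33 in PM2i-iPSC, -1.03 in MEF), and Krt19, a keratin of simple epithelia, lay within 1.5-fold (-0.86 in PM2i-iPSC, -0.58 in MEF).

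**Figure D3:**
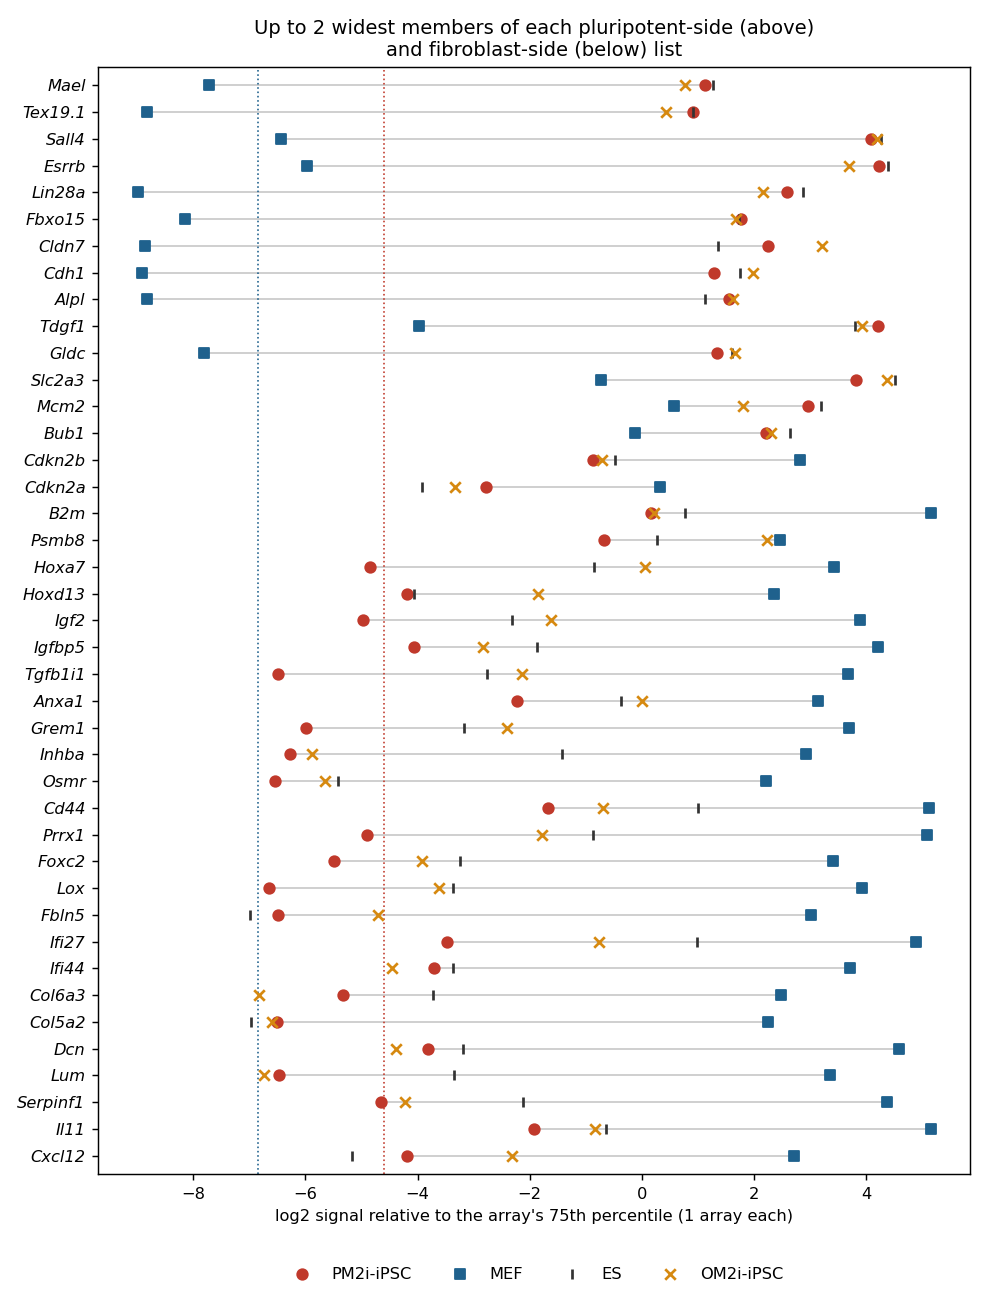
Levels of up to 2 members with the widest difference in each pluripotent-side list (above) and fibroblast-side list (below) on the PM2i-iPSC, MEF, ES and OM2i-iPSC arrays, as log2 signal relative to the array's 75th percentile, with 1 array each. Dotted lines are the detection floors of PM2i-iPSC (-4.59) and MEF (-6.85), and grey lines join PM2i-iPSC to MEF. Prrx1, at -4.89 in PM2i-iPSC and 5.09 in MEF, is among the members below.

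Of 17 germline and 2-cell-stage genes, 15 were at least 2-fold higher. Their median of 5.97 was 4.40 with a detection floor shared by both arrays and 3.70 over members well above background on both. Mael, which protects germ cells from transposons, had 1.12 in PM2i-iPSC and -7.72 in MEF, at least 251-fold higher, and Tex19.1, with a related role, 0.91 in PM2i-iPSC and -8.83 in MEF, at least 217-fold higher. The preimplantation gene Tcstv1 was at 1.35 in PM2i-iPSC and -5.44 in MEF, 111-fold higher, with ES cells at 2.23. Dazl, a germ-cell RNA-binding protein, was 15.0-fold lower on its brightest probe (-2.50 in PM2i-iPSC, 1.41 in MEF) and higher by 5.96 on its other probe, so its direction is uncertain.

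Proliferation genes lay closer to the MEF level. Of 25 DNA replication and mitosis genes that entered, 9 were at least 2-fold higher, 4 lower and 8 within 1.5-fold. Over all genes that entered the shares were 33.5% higher, 24% lower and 18% within 1.5-fold, so the higher and lower counts lie near those shares. The median of the list was 0.70, or 0.07 with arrays scaled on the median, 0.72 with quantile normalization and 0.96 with the median over probes. Quantile normalization gave 12 of 25 higher and 4 lower, and the median over probes 12 of 25 higher and 2 lower. Mcm2, a subunit of the replicative helicase, was 5.23-fold higher (2.96 in PM2i-iPSC, 0.57 in MEF) and the checkpoint kinase Bub1 5.05-fold higher (2.22 in PM2i-iPSC, -0.12 in MEF). Of the D cyclins, Ccnd2 stood at -0.87 in PM2i-iPSC and 4.12 in MEF, 31.7-fold lower, and Ccnd1 at 1.72 in PM2i-iPSC and 5.10 in MEF, at least 10.5-fold lower. The OM2i-iPSC array read Ccnd2 at 4.27. Pcna, the sliding clamp, was at 1.78 in PM2i-iPSC and 1.79 in MEF. In metabolism, 6 of the 19 genes that entered were higher, 2 lower and 4 without a fold, where 33.5% of all genes that entered were higher and 24% lower. Gldc, the glycine-cleaving enzyme, was at least 293-fold higher (1.35 in PM2i-iPSC, -7.81 in MEF), and the glucose transporter Slc2a3 23.5-fold higher (3.82 in PM2i-iPSC, -0.73 in MEF). Phgdh, which opens serine synthesis, was 4.28-fold lower (2.85 in PM2i-iPSC, 4.95 in MEF).

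Of 14 Hedgehog genes, the pathway that purmorphamine acts on, 7 were higher and 6 lower, where 33.5% of all genes were higher and 24% lower. The effectors Gli2 and Gli1 were 6.98-fold and 5.47-fold higher (-1.20 and -2.92 in PM2i-iPSC, -4.00 and -5.37 in MEF), and the co-receptor Cdon at least 23.5-fold (-2.29 in PM2i-iPSC, -8.89 in MEF). Hhat, Gas1 and Gli3 were lower, at -2.13, -6.58 and 0.49 in PM2i-iPSC against 3.39, 0.63 and 3.59 in MEF. The other probe of Hhat differed by 1.10, the opposite way, so its direction is uncertain. On the ES array, which had no purmorphamine label, Gli2 stood at -0.80 and Gli1 at -3.15. Of 14 MEK-ERK feedback and target genes that entered, 6 were lower and 4 higher, against the same shares of all genes. Dusp4, a phosphatase of ERK, was 38.8-fold lower (-3.17 in PM2i-iPSC, 2.11 in MEF), with a difference of -1.58 on another probe. Phlda1 was 21.4-fold lower (-0.31 in PM2i-iPSC, 4.11 in MEF), while Etv5 was 11.4-fold higher (1.88 in PM2i-iPSC, -1.63 in MEF). Of 9 Wnt targets that entered, 4 were higher and 4 lower, again against those shares. Axin2, a feedback inhibitor of the pathway, was not well above background in PM2i-iPSC (-5.11, against -1.39 in MEF), and Sp5 was 3.14-fold higher (-1.01 in PM2i-iPSC, -2.67 in MEF).

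Genes that stayed at the fibroblast level are those within 1.5-fold and measured on both arrays. They were 23 of the 262 fibroblast-side members that entered and 20 of the 138 pluripotent-side members that entered, against 18% of all genes that entered. This class moves with the scaling: of the 3924 genes, 1838 remained in it with scaling on the median, 2753 with quantile normalization and 2846 with normexp correction. Scaling on the median lowered each measured difference by more than the 0.585 in log2 that bounds the class. Genes at or below the MEF level left it by construction, so remaining in it reflects a positive difference and is no measure of stability. Of the 23 fibroblast-side members, 9 stayed within 1.5-fold under each of those scalings, among them Fn1, Osr1, Meox1, Islr, Id2, Igf1r, Psmb10 and Hoxc5 on their brightest probes, and so did 4 of the 20 pluripotent-side ones, namely Il6st, Dnmt1, Ccne2 and Cdk2. With the median over probes, 11 fibroblast-side and 12 pluripotent-side members lay within 1.5-fold. Of the 3924, 1540 had another probe with a difference, and in 432 of these the other probes also lay within 1.5-fold. The brightest genes that stayed lay near the upper end of both arrays, and on PM2i-iPSC above the median of saturated probes, although the scanner marked none of those named as saturated. They included Kpna6, an importin, at 4.32 in PM2i-iPSC and 4.74 in MEF, and Etfb, of mitochondrial electron transfer, at 4.33 in PM2i-iPSC and 4.42 in MEF. The ribosomal protein Rps19 was at 4.27 in PM2i-iPSC and 4.48 in MEF, with a difference of -1.55 on another probe.

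Among the genes that stayed at the MEF level, ES levels were below MEF by 4-fold or more for 43 and above MEF by 4-fold or more for 46. These counts use the MEF array on both sides and are descriptions of the levels. Besides Fn1, the first group held Metrnl, a secreted meteorin-like factor, at 2.44 in PM2i-iPSC, 2.10 in MEF and -2.09 in ES cells, with another probe that differed by -0.74 between PM2i-iPSC and MEF. It also held Pdpn, podoplanin, at 0.81 in PM2i-iPSC, 0.53 in MEF and -3.29 in ES cells, with another probe that differed by -2.82 between PM2i-iPSC and MEF. Ttpal, of the tocopherol transfer family, was at 2.22 in PM2i-iPSC, 2.44 in MEF and -0.97 in ES cells, with another probe that differed by -3.06 between PM2i-iPSC and MEF. The OM2i-iPSC array read Metrnl, Pdpn and Ttpal at -2.37, -2.16 and -0.89. In the second group Rara, a retinoic acid receptor, was at -3.66 in PM2i-iPSC, -3.85 in MEF and -0.09 in ES cells. Usp39, a splicing factor, was at -1.26 in PM2i-iPSC, -1.75 in MEF and 1.30 in ES cells. Aldh1b1, a mitochondrial aldehyde dehydrogenase, was at -4.26 in PM2i-iPSC, -4.20 in MEF and -1.48 in ES cells. The OM2i-iPSC array read Rara, Usp39 and Aldh1b1 at -1.93, -2.78 and -0.58.

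**Figure D4:**
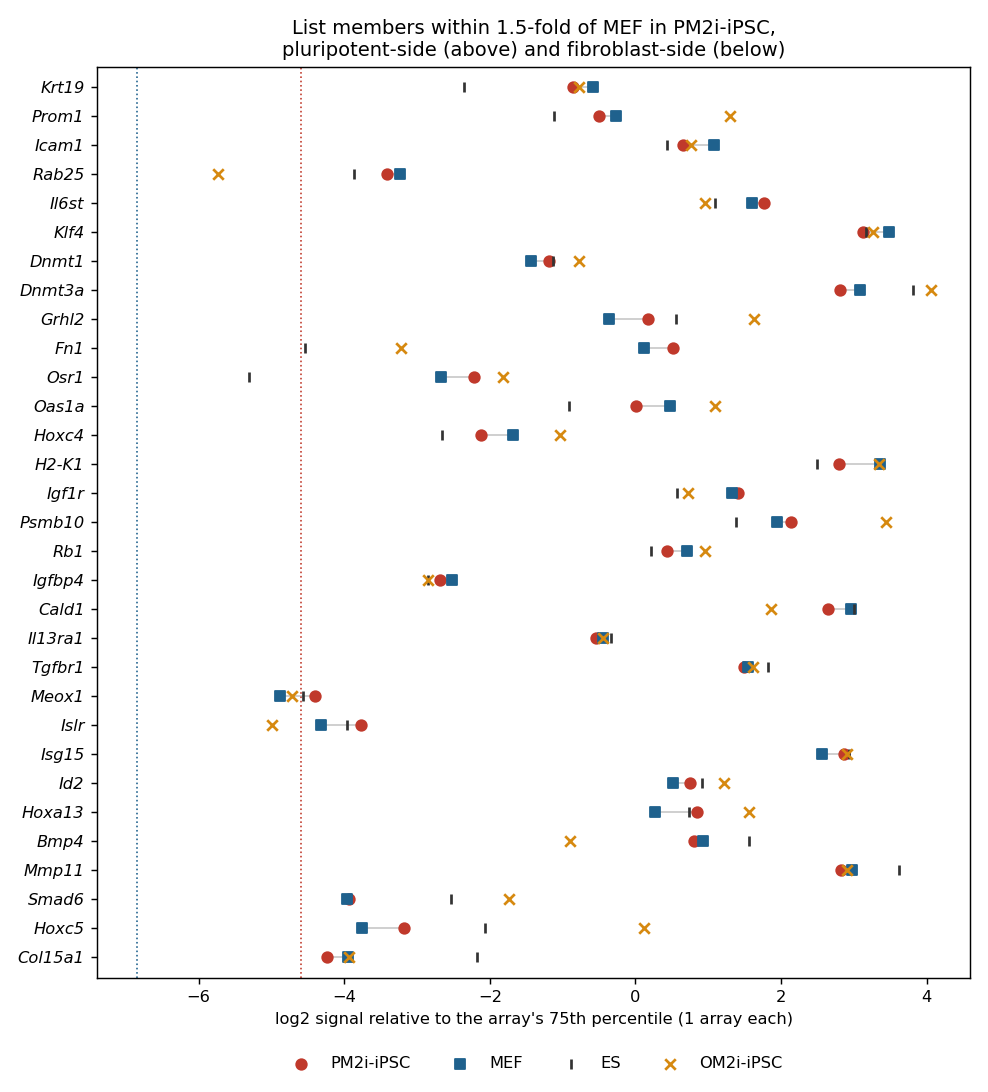
Levels on 4 arrays of the members of the pluripotent-side lists (above, proliferation and metabolism left out) and fibroblast-side lists (below) reported here that lay within 1.5-fold between PM2i-iPSC and MEF, as log2 signal relative to the array's 75th percentile, with 1 array each. Dotted lines are the detection floors of PM2i-iPSC (-4.59) and MEF (-6.85). Fn1 is the member farthest from its ES level, at 0.51 in PM2i-iPSC and 0.12 in MEF against -4.54 in ES.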

How the data were processed

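Spot intensity was deposited for each array, and per the file headers it was extracted with Agilent Feature Extraction 10.7.3.1 (PM2i-iPSC, ES, OM2i-iPSC) or 9.5.3.1 (MEF); the processed signal is background-corrected. The deposited series table repeats these values, rounded. Of 43379 non-control spots an array, those with outlier flags were dropped, repeats of a probe were averaged, and values were put on a log2 scale relative to the array's 75th percentile. RefSeq (GRCm38.p6) gave names to 22951 of 41174 probes through accessions, to 6659 through current and to 3109 through older symbols; the other 8455 kept the file's name. A gene was read on its brightest probe over the 2 arrays. Groups came from titles. The members and the 32 lists were chosen with earlier results of these data known. Named were anchors, up to 5 widest, 3 opposite and 4 unchanged members a list, any Hox, macrophage, endothelial or X and Y gene, and the 12 highest, 12 lowest and 12 brightest unchanged genes; others were named after their values were seen. Some genes the rule names are not reported here. Alternatives changed the scaling, background correction, probe choice and filters (Python 3.11.15, pandas 2.3.3, limma 3.58.1 in R 4.3.3). The counting was tested on simulated data. The number of arrays limits the precision.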

Additional observations from a re-analysis of the deposited data

How the results depend on the processing

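No paired analysis was possible because each group has 1 array. Scaling on the median gave 4032 genes at least 4-fold lower and 7 lower housekeeping genes, and 42.3% of calls at 2-fold were higher against 58.2% with the 75th percentile. Normexp correction, run on median signals because mean signals are not in all files, gave 2840 genes at least 4-fold higher. Without a filter on dim probes 12782 genes were at least 2-fold and 8981 at least 4-fold higher, and 5 primed epiblast genes. With genes well above background on both arrays the lower members numbered 7 collagens, 9 proteoglycans, 9 elastic fibre genes, 10 mesenchymal factors, 11 interferon-induced, 9 Hox, 2 Wnt, 0 macrophage and 0 X and Y genes. Under that filter the higher members numbered 8 RNA-binding and chromatin, 1 primed epiblast, 5 trophoblast and 2 endothelial genes; fewer genes enter by its construction. Direction turned for Tcf7l1 (0.056 with quantile normalization, 0.18 with normexp) and, with normexp, for Hoxa3 (-3.52) and Hoxa6 (-0.10). The brightest probe was picked anew under each setting, so the turned values of Tcf7l1 and Hoxa3 may be of another probe. The median over probes turned Mfap2 (-0.86), Runx1 (-0.68), Cdh11 (-5.43), Hoxa3 (-1.66), Rbl2 (0.033), Dazl (2.11), Zfp352 (0.64), Pax6 (1.77), Slc1a2 (-1.50), Xist (-1.32) and Fam184b (-1.42); the cause was not tested. The deposited series table and a detection floor shared by both arrays, the last added after seeing the data, turned no named gene, but the shared floor moved 44 of 320 values and lowered the medians of germline (4.40), epithelial (2.39) and trophoblast (1.34) genes.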

Other observations

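Lineage genes outside the lists above were mixed. Over all genes that entered, with or without a fold, 33.5% were higher and 24% lower. Trophoblast genes were higher by 2-fold or more in 8 of 9 cases. The widest were Tfap2c, at 3.09 in PM2i-iPSC and -2.99 in MEF (67.3-fold), and Eomes, at -1.56 in PM2i-iPSC and -6.53 in MEF (31.4-fold). Their ES levels were 3.71 and -1.73. Gata3 was the one lower member, not well above background in PM2i-iPSC (-6.27) and at 0.75 in MEF. The endothelial genes Tek and Erg, a receptor tyrosine kinase and an ETS factor, were at 0.17 and -0.88 in PM2i-iPSC, not well above background in MEF (-9.02 and -8.62) and at -2.05 and -4.49 in ES cells, and of 6 endothelial genes with a difference 4 were higher and 1 lower, while Cdh5, Kdr, Emcn, Tie1 and Sox18 were not well above background in PM2i-iPSC. Of 10 primitive endoderm genes that entered, 4 were higher and 5 lower. The laminin chain Lama1 was at 2.04 in PM2i-iPSC and -9.03 in MEF, at least 473-fold higher, and Afp and Ttr were not well above background on either array. Of 12 neural genes, 6 were lower and 2 higher, and of 3 primed epiblast genes with a difference 2 were higher and 1 lower. Sox1, a neural factor, stood at -2.23 in PM2i-iPSC and -6.92 in MEF.

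Of 15 housekeeping genes that entered, 4 were at least 2-fold higher and 4 lower, where 33.5% of all genes that entered were higher and 24% lower. Hprt, a purine salvage enzyme often used to normalise, stood at -0.28 in PM2i-iPSC and was saturated at 5.11 in MEF, at least 41.9-fold lower, with 0.06 in ES cells and -1.33 in OM2i-iPSC. Tbp and Polr2a were 5.19-fold and 5.24-fold higher, at 0.95 and 2.90 in PM2i-iPSC against -1.42 and 0.51 in MEF. Ppia and Sdha lay within 1.5-fold.

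Outside the lists, the widest measured higher genes after Pou5f1 were Tex13b (3.06 in PM2i-iPSC, -6.20 in MEF, 614-fold) and Fam25c (3.09 in PM2i-iPSC, -6.02 in MEF, 555-fold). Col13a1, a transmembrane collagen, was 324-fold higher, with 1.70 in PM2i-iPSC and -6.64 in MEF, and its other probe differed by 1.57. Among the lowest were Tm4sf1, a tetraspanin-like surface protein (-3.38 in PM2i-iPSC, 4.44 in MEF, 225-fold), and Masp1, a complement-activating protease (-4.09 in PM2i-iPSC, 3.61 in MEF, 209-fold), whose other probe differed by -0.44.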
